A study of Mus musculus with 17 samples.

Results

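Interferon beta and 42 genes that interferons induce were followed in 17 libraries of mouse colon macrophage preparations. The 43 members were the rows of the 3 deposited count tables whose NCBI gene number maps to a symbol on a list of interferon-stimulated genes, out of 27179 genes in each table, and all 43 were found. By role they were 1 ligand, 4 transcription factors, 5 sensors of nucleic acid and their kinase, 20 antiviral effectors, 1 brake, 7 GTPases, 3 antigen processing genes and 2 chemokines. The study set mice deficient in MCJ, the product of Dnajc15 and a brake on complex I of the mitochondrial respiratory chain, against wild-type mice (C57BL/6, 8 weeks old). Library titles give 3 conditions. The first is NN, for which no treatment is named (2 MCJ-deficient and 3 wild-type libraries). The second is NP, dextran sodium sulfate (DSS, which injures the colon lining) for 6 days without antibiotic (3 and 3). The third is PP, a broad-spectrum antibiotic for 7 days and then the same DSS course (3 and 3). Cells were freed from colon with collagenase and washes, and the labels' protocols name no sorting step. Each title gives a library number of its own and a mouse number, and mouse numbers 1, 2, 3 and 10 recur in more than 1 group, such as 1 and 2 in KO NN and KO NP. A number shared by a KO and a WT library marks different mice, as the genotypes differ. Within a genotype only 1 and 2 recur, in KO NN and KO NP. A mouse whose colon was digested without treatment could not also give a DSS library, so these are different mice too. The titles do not say what a recurring number stands for. The p-values below measure the spread between these samples. Below, KO stands for MCJ-deficient and WT for wild type, and libraries are called by the number in their title.

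Interferon beta is secreted by macrophages and other cells that sense foreign nucleic acid or bacterial products. It binds the type I interferon receptor, whose signal brings a complex that holds Stat2 and Irf9 into the nucleus, where it binds the interferon-stimulated response element (ISRE). Interferon gamma acts through the gamma-activated site (GAS), and several members, among them the guanylate-binding proteins, Irf1 and Cxcl9, answer to it strongly. In the intestine the microbiota is known to keep mononuclear phagocytes primed for interferon production.

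Promoter stretches of 6 members are shown for the elements they hold upstream of their starts. The letters are from RefSeq on GRCm38.p6, run 5′ to 3′ on the strand of the gene, and capitals mark matches to the ISRE core (GAAA, any 2 bases, GAAA) or the kappa-B pattern (GGGA, any 2 bases, TTCC), read on either strand.
Ifnb1: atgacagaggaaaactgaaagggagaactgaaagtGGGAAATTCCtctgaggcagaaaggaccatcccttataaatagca
Isg15: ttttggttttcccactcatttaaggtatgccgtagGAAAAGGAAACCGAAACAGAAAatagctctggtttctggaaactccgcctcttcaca
Ifit1: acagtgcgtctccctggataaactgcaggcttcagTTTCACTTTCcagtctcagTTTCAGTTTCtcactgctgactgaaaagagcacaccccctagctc
Rsad2: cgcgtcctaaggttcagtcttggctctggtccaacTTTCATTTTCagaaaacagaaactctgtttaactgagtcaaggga
Gbp2: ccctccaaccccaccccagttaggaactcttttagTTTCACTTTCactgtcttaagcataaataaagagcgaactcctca
Cxcl10: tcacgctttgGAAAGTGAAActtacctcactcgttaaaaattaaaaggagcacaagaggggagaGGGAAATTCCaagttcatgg
The stretch of Ifnb1 is chr4:88522866-88522945 (minus strand). The stretch of Isg15 is chr4:156200840-156200931 (minus strand). The stretch of Ifit1 is chr19:34640750-34640848 (plus strand). The stretch of Rsad2 is chr12:26456528-26456607 (minus strand). The stretch of Gbp2 is chr3:142620569-142620648 (plus strand). The stretch of Cxcl10 is chr5:92349029-92349112 (minus strand). The stretch of Ifnb1 held 1 kappa-B match, the pattern of NF-kappa-B factors, and no ISRE core with the 2-base spacing searched. A pair of GAAA at another spacing lies before the match and is not counted by this pattern. The capital run of Isg15 is 3 overlapping ISRE cores, Ifit1 had 2 separate ones, Rsad2 and Gbp2 had 1 each, and Cxcl10 had 1 ISRE core and 1 kappa-B match.

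A promoter of 300 bases (250 before to 50 after the start) was in the RefSeq table for 35 of the 43 members. The ISRE core was in 20 of the 35, or 57.1%, and in 3.99% of all 27025 promoters. By role it was in 6 of 6 GTPase promoters, 3 of 3 sensor promoters, 9 of 16 effector promoters, 1 of 4 transcription factor promoters, 1 of 2 chemokine promoters and none of the 3 antigen processing promoters or the 1 of Ifnb1. The GAS pattern TTCNNNGAA was in 28.6% of the 35 and 9.55% of all promoters. The kappa-B pattern, widened after the promoters had been read, was in 5 of the 35 (Ifnb1, Ifit2, Gbp2, Gbp5 and Cxcl10; 14.3%) and in 1.63% of all, and the stricter form (GGGA, any base, TTTCC) was in 2.86% (Gbp5) and 0.466%. A match is a description of these letters and not evidence of binding. Oas2, Mx1, Mx2, Usp18, Zbp1, Iigp1, Dhx58 and Parp14 had no entry.

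Each library held between 29194744 and 37083344 counts, of which mitochondrial transcripts took between 23.1 and 50.4%. Levels below are CPM, counts scaled to library size with TMM factors over the 17 libraries; they are not divided by gene length, so they compare a gene between libraries and not one gene with another. The targeted gene was lower in every KO library. In NN, Dnajc15 had 104 and 111 counts in KO, against 1286, 359 and 1028 counts in WT. In NP it had 121, 60 and 65 counts in KO, against 1217, 1457 and 1534 counts in WT, and in PP 21, 22 and 105 counts in KO, against 827, 817 and 939 counts in WT. edgeR called it in NP (log2 fold change -4.19, SE 0.28) and not in NN (-3.76, SE 0.55) or PP (-4.15, SE 0.76), although the levels did not overlap there. Macrophage markers were abundant in PP and scarce in NN. Adgre1, which encodes F4/80, had 0.789 and 0.257 CPM in KO NN, against 0.0409, 0.0973 and 0 CPM in WT NN. It had 63.1, 85.3 and 42.4 CPM in KO PP, against 166, 18.3 and 117 CPM in WT PP. The 12 macrophage markers summed to between 10.0 and 27.7 CPM over the NN libraries, whereas 10 colonocyte markers summed to between 10450 and 19950 CPM over NN and NP. In a bulk library, fewer cells of a type and less RNA per cell cannot be told apart.

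**Figure D1:**
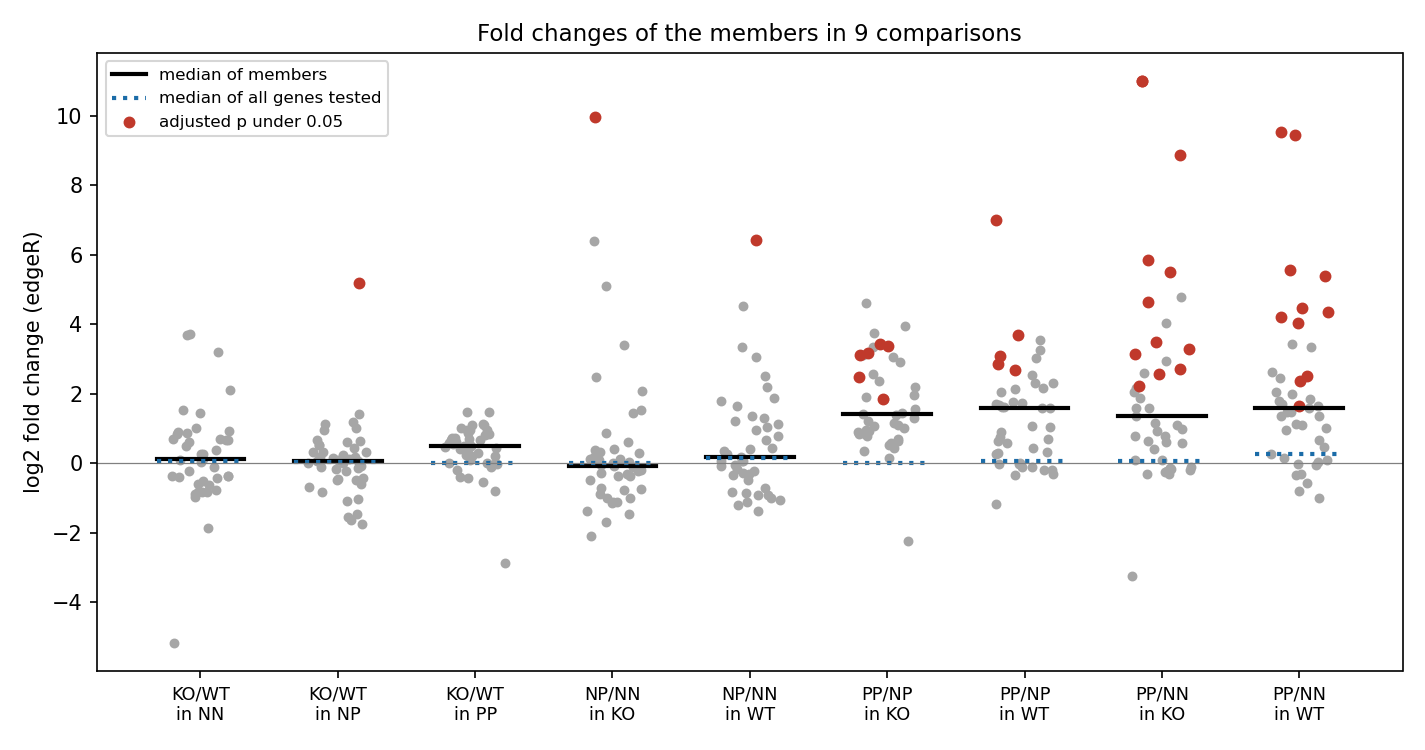
Log2 fold change (vertical axis) of each member tested (points, spread sideways for legibility) in 9 comparisons (horizontal axis): KO over WT in NN, NP and PP, then NP over NN, PP over NP and PP over NN in each genotype. Red points passed an adjusted p of 0.05, solid bars are the members' medians and dotted bars those of all genes tested; the red points lie in the treatment comparisons except for Ifnb1 in KO over WT under NP.

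Members were mostly highest when antibiotic preceded DSS. The group mean was highest in KO PP for 28 of the 43 members, in WT PP for 7, in KO NN and WT NN for 3 each, in WT NP for 2, and in KO NP for none. The 43 members summed to 377 and 642 CPM in KO NN, against 574, 604.5 and 462 CPM in WT NN. Under DSS alone they summed to 361, 564 and 558 CPM in KO, against 929.7, 489.8 and 368 CPM in WT. With antibiotic before DSS the sums were 1059, 3097 and 936 CPM in KO, against 1780, 476 and 1075 CPM in WT. KO 23 and WT 10 were high in their groups and WT 11 stayed within the range of the libraries without antibiotic.

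Antibiotic before DSS, set against DSS alone, gave the most calls of the comparisons that differ in 1 treatment. In KO, 6 of the 43 members (14%) rose (Oasl1, Rsad2, Cxcl10, Tap1, Psmb8 and Isg15), where 1.34% of the 16958 genes tested were called higher, and no member fell (0.389% of all genes). In WT, 5 (11.6%) rose (Rsad2, Ifnb1, Oasl1, Cxcl10 and Isg15), where 3.49% of all genes were called higher, and none fell (0.926%). Rsad2, Oasl1, Cxcl10 and Isg15 were called in both genotypes, which is 66.7% of the KO calls and 80.0% of the WT calls. The fold change lay above 0 for 42 members in KO and 34 in WT, against 50.2 and 53.0% of all genes. The median log2 fold change of the members was 1.41 in KO and 1.58 in WT, beside 0.01 and 0.06 over all genes. Levels did not overlap, with PP higher, for 15 members in KO (34.9%; background 12.8%) and 16 in WT (37.2%; background 11.6%); with PP lower they did not overlap for 1 member in KO, Ifi44, and 0 in WT (10.5 and 10.8%).

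These counts rested on few libraries. In KO the count was 0 without KO 19, without KO 21 or without KO 23, 1 (Cxcl10) without KO 20, 3 (Rsad2, Cxcl10 and Oasl1) without KO 22, and 7 without KO 24. In WT it was 2 (Rsad2 and Ifnb1) without WT 7, 8, 9 or 10, 3 without WT 12 and 7 without WT 11. Cell markers moved in the same comparisons. In WT, 10 of 12 macrophage markers rose, their sum being between 441 and 3654 CPM in PP and between 64.4 and 103 CPM in NP, and 1 of 8 neutrophil markers rose. In KO, none of the 12 macrophage markers was called (6 at an unadjusted p under 0.05 and 2 by DESeq2; sums between 1712 and 2150 CPM in PP and between 304 and 1191 CPM in NP), and 4 of 8 neutrophil markers rose (sums between 966.5 and 4998 CPM in PP and between 251 and 537 CPM in NP). The part of these cells in the members' levels was not tested.

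DSS alone, set against no treatment, called 1 of 43 members (2.33%) in each genotype. In KO it was Ifnb1, where 2.04% of all genes were called higher, and in WT it was Gbp5, where 2.25% were. No member fell (0.0354% of all genes in KO and 0.195% in WT). The median of the 43 members was -0.08 in KO and 0.18 in WT, beside 0.02 and 0.14 over all genes, and 20 and 25 members lay above 0 (51.0 and 56.5% of all genes). Levels did not overlap for 7 members higher (16.3%) and 3 lower (6.98%) in KO (background 19% and 17.1%), and for 8 higher (18.6%) and 4 lower (9.3%) in WT (background 12.0 and 6.22%). In KO the next members by p were Gbp5 (5.10, SE 1.38), Cxcl9 (6.38, SE 2.17) and Cxcl10 (2.09, SE 0.79). In WT they were Gbp2 (4.53, SE 1.40), Irf7 (-1.37, SE 0.46) and Psmb8 (1.21, SE 0.44). None of these passed the test. The Gbp2 value lay between 1.55 and 5.33 over its alternatives. WT 7 had 137.5 CPM of Gbp2, against 6.51 and 6.23 CPM in WT 8 and WT 9. Of the cell markers, 8 of 12 macrophage and 6 of 8 neutrophil markers rose in KO, and 5 of 12 and 6 of 8 in WT. The comparisons of DSS and of antibiotic use the same NP libraries, so they are not independent of each other.

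Across both treatments, PP against NN, 12 members (27.9%) rose in KO, where 6.52% of all genes were called higher, and 11 (25.6%) rose in WT, where 12.8% were. The 8 called in both were Cxcl10, Cxcl9, Gbp2, Gbp5, Ifnb1, Isg15, Oasl1 and Rsad2, which is 66.7% of the KO calls and 72.7% of the WT calls. Psmb8, Gbp7, Tap1 and Zbp1 were called in KO, and Ifit3, Mx2 and Gbp3 in WT. None fell (3.77% of all genes in KO and 7.31% in WT). The medians were 1.37 in KO and 1.59 in WT, beside 0.06 and 0.27 over all genes, with 34 and 36 members above 0 (51.9 and 57.9% of all genes). Levels did not overlap for 20 members higher (46.5%) and 1 lower in KO (background 21.1 and 21.8%), and for 12 higher (27.9%) and 1 lower in WT (background 20.7 and 12.8%). The KO count was 3 without KO 13, 5 without KO 14 and 7 without KO 23, and the WT count was 4 (Gbp5, Gbp2, Ifnb1 and Cxcl10) without WT 10 and 16 without WT 11. Macrophage markers rose for 10 of 12 in KO and 11 of 12 in WT, neutrophil markers for 7 of 8 in each, and 6 of 10 colonocyte markers fell in each.

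The loss of MCJ itself, KO against WT within a condition, called 1 member in NP and none in NN or PP. In NN, 41 members could be tested (Ifnb1 and Gbp5 were too low); edgeR called 0 and DESeq2 0, 1 was lower at an unadjusted p under 0.05 (Oas1a, -0.87, SE 0.36; 4.79% of all genes), and 0.0% of the 13559 genes were called. The median was 0.12 beside 0.08 over all genes, with 23 of 41 above 0 (54.7% of all genes). In NP, 1 of 43 (2.33%) rose, Ifnb1, where 0.983% of the 14452 genes were called higher, and none fell (0.0208%). The median in NP was 0.08 beside 0.03 over all genes, with 25 of 43 above 0 (52.4% of all genes). In PP, edgeR called 0 of 43 and DESeq2 0, 1 was higher at an unadjusted p under 0.05 (Tap1, 1.48, SE 0.63; 3.0% of all genes), and 0.0% of the 14556 genes were called. Without a call, 33 of 43 members (76.7%) lay above 0 in PP, against 50.9% of all genes, and the median was 0.51 beside 0.01; KO 23 and WT 11 stand at opposite ends of these levels.

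Levels of KO and WT did not overlap for 5 members in NN: Ifit3, Ifit3b, Mx2 and Tap1 were higher in KO (background 20.4%) and Psmb9 was lower (10.9%). In NP they did not overlap for 4 higher members, Ifnb1, Ddx58, Rsad2 and Oasl1 (9.8%), and for 2 lower ones, Ifi35 and Psmb8 (7.35%). In PP the members were Irf1, higher (5.53%), and Ifi44, lower (6.21%). None of these but Ifnb1 in NP passed the test.

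Ifnb1 encodes interferon beta, the only member that is itself a secreted interferon. In NN it had 0 counts in KO 13 and KO 14, against 1, 0 and 0 counts in WT. Under DSS alone it had 74, 257 and 67 counts in KO, against 4, 0 and 7 counts in WT. With antibiotic before DSS it had 309, 118 and 357 counts in KO, against 650, 50 and 524 counts in WT. The NP groups did not overlap, and in PP the WT libraries spanned the KO range on both sides.

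On the CPM scale Ifnb1 had 0 and 0 CPM in KO NN, against 0.0409, 0 and 0 CPM in WT NN. It had 1.55, 7.45 and 1.94 CPM in KO NP, against 0.129, 0 and 0.16 CPM in WT NP. It had 7.47, 3.15 and 11.4 CPM in KO PP, against 21.5, 1.45 and 15.8 CPM in WT PP. The fold change of KO over WT in NP was 5.19 on the log2 scale (SE 1.06, edgeR quasi-likelihood test, Benjamini-Hochberg adjusted p = 0.0448). In PP it was -0.79 (SE 0.85), short of the threshold. The difference between these 2 effects of MCJ was 6.01 on the log2 scale (SE 1.51). It missed the threshold in edgeR (Benjamini-Hochberg adjusted p = 0.367) and passed in DESeq2 (adjusted p = 0.00837). The NP call was kept without KO 19 and was lost without KO 20, KO 21, WT 7, WT 8 or WT 9, and in the fit of all 17 libraries, the edgeR adjusted p reaching 0.607.

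In KO, Ifnb1 was at least 87.3-fold higher under DSS than without treatment, taking the floor of 3 counts over the NN group (edgeR, Benjamini-Hochberg adjusted p = 0.0128), and at least 182-fold higher with antibiotic before DSS. The DSS call in KO was lost without KO 13 or without KO 14, each of which leaves 1 NN library. In WT the ratio of DSS to no treatment was 6.94 (95% interval 1.01 to 299, counting error only), resting on 11 counts against 1. With antibiotic before DSS, WT exceeded WT under DSS alone by 7.01 on the log2 scale (SE 1.28, edgeR, Benjamini-Hochberg adjusted p = 0.00494). The same step in KO was 1.01 (SE 0.97), short of the threshold. For PP over NN the WT ratio was 891 (95% interval 160 to 35210, counting error only), on 1224 counts against 1.

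Other measures moved with Ifnb1 in NP. Of 12 macrophage markers 8 rose in KO over WT (median 3.30 on the log2 scale), their sum being 304, 1191 and 616 CPM in KO NP and 103, 64.4 and 78.5 CPM in WT NP. KO 20 had both the highest Ifnb1 level and the highest macrophage sum of the NP libraries. Of 6 monocyte markers 3 rose, with Fn1 at 1.13, Ly6c2 at -0.74 and Plac8 at -0.80 not called. These 6 summed to between 665 and 1248 CPM in KO NP and between 958 and 1716 CPM in WT NP. Of the conventional dendritic cell markers tested, Itgax rose by 3.09, and Xcr1 (3.57), Cd209a (0.66) and Flt3 (0.31) were not called. None of 8 neutrophil markers was called by edgeR (median -0.39; 1 higher and 2 lower at an unadjusted p under 0.05; 1 by DESeq2). Siglech, a defining marker of plasmacytoid dendritic cells, which are known for abundant type I interferon, was at 0 in 4 of the 6 NP libraries and at most 0.782 CPM. The 6 markers listed for these cells summed to between 293 and 947 CPM in KO NP and between 606 and 1257 CPM in WT NP, nearly all of it Klk1 (between 282.5 and 932 CPM in KO NP and between 597.5 and 1244 CPM in WT NP), a kallikrein that is not restricted to these cells. None of the 3 that could be tested was called by edgeR or DESeq2, with 0 at an unadjusted p under 0.05, and Tcf4 lay between 6.91 and 14.2 CPM over NP. Pacsin1, Cox6a2 and Ccr9 were at most 0.87 CPM there. The part of these cells in the Ifnb1 difference was not tested.

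**Figure D2:**
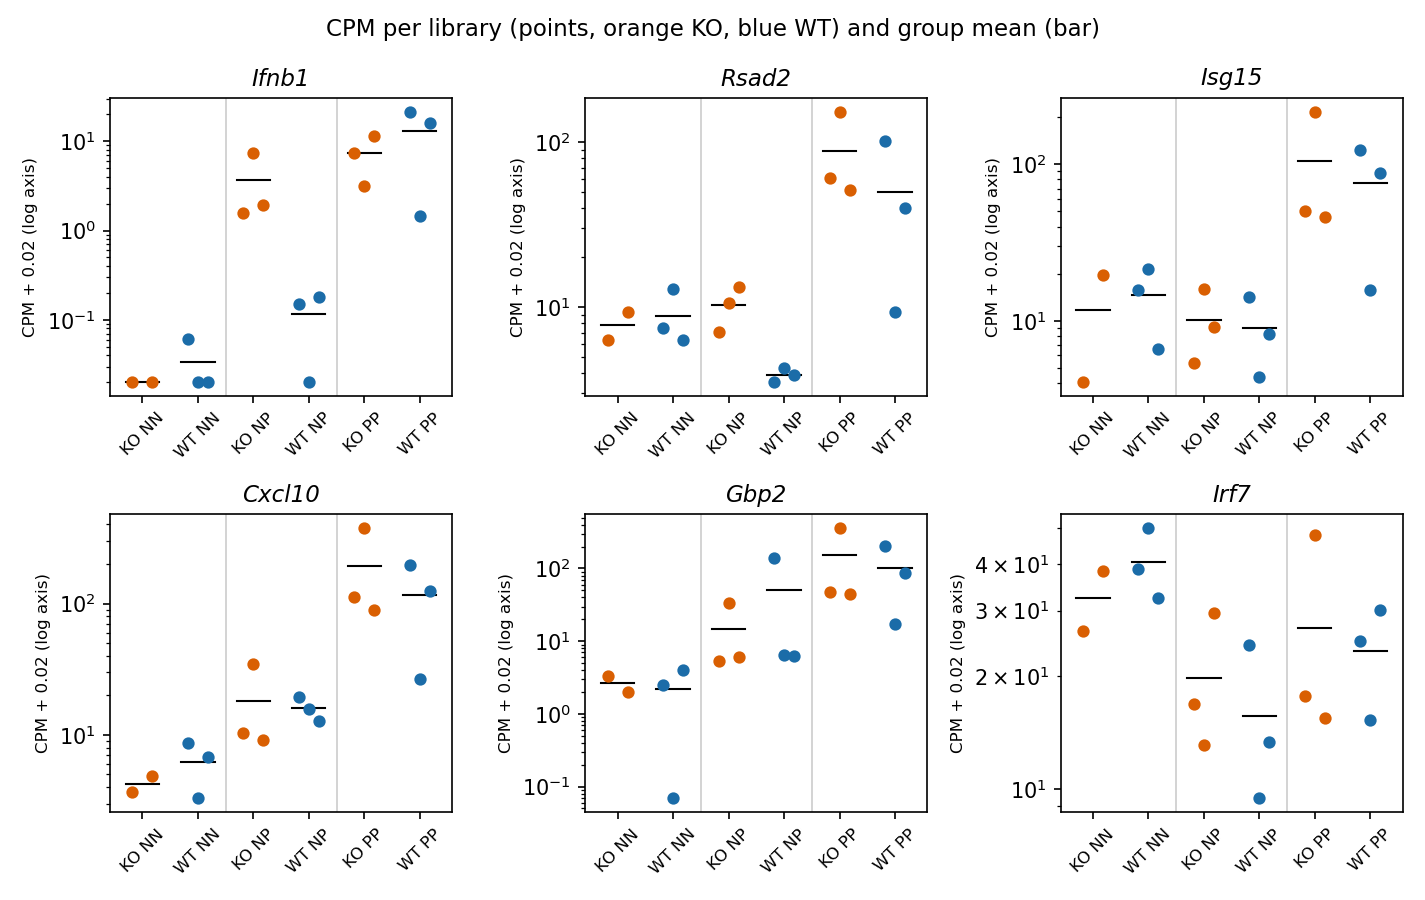
Levels of 6 members in each library (points; CPM + 0.02 on a log axis) in NN, NP and PP, with KO (orange) left of WT (blue) in each condition; horizontal bars are group means. Ifnb1 had 0 CPM in both KO NN libraries and reached 7.45 CPM in KO NP, against at most 0.16 CPM in WT NP.

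None of the 4 transcription factors was called in any of the 9 comparisons of genotype or treatment, by edgeR or by DESeq2. Irf1, which drives antigen presentation genes downstream of interferon gamma, had 106 and 98.9 CPM in KO NN, against 85.2, 106 and 96.4 CPM in WT NN. It had 100.2, 103 and 123 CPM in KO NP, against 120.3, 124 and 82.1 CPM in WT NP. It had 144, 188 and 143 CPM in KO PP, against 139.6, 76.9 and 102.5 CPM in WT PP, where every KO library lay above every WT library without passing the test. Irf7, which amplifies type I interferon production, had 26.4 and 38.3 CPM in KO NN, against 38.8, 50 and 32.5 CPM in WT NN. It had 16.8, 13.1 and 29.6 CPM in KO NP, against 24.3, 9.41 and 13.3 CPM in WT NP. It had 17.7, 47.8 and 15.5 CPM in KO PP, against 24.8, 15.3 and 30.1 CPM in WT PP. The WT levels of Irf7 were lower under DSS than without treatment with no overlap, and the change of -1.37 (SE 0.46) missed the threshold (edgeR, Benjamini-Hochberg adjusted p = 0.147). Irf9 and Stat2, both parts of the ISRE-binding complex, ranged between 10.9 and 40.6 CPM and between 2.14 and 19.1 CPM over the 17 libraries, each with its maximum in KO 23. Irf9 stood at 0.74 (SE 0.38) for KO over WT in PP, short of the threshold. At an unadjusted p under 0.05, 2 of the 4 were higher in KO PP than in KO NP, where 8.36% of all genes were, and their median there was 0.69.

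The sensors gave 1 call among 5 genes, in KO PP over KO NN, where 6.52% of all genes were called higher. Zbp1, which binds Z-form nucleic acid and can trigger necroptosis, rose in KO PP over KO NN by 2.57 on the log2 scale (SE 0.75, edgeR, Benjamini-Hochberg adjusted p = 0.0361). It had 4.05 and 9.72 CPM in KO NN, against 11.1, 18.4 and 9.56 CPM in WT NN. It had 23, 75.4 and 23.9 CPM in KO PP, against 38.7, 11.4 and 25.4 CPM in WT PP, so every KO PP library lay above both KO NN libraries, while WT 11 stayed close to WT NN. Ddx58, which encodes the RNA sensor RIG-I, had 6.12, 7.36 and 14.1 CPM in KO NP, against 3.06, 4.51 and 4.5 CPM in WT NP, where the groups did not overlap and the change of 1.19 (SE 0.40) missed the threshold. Ifih1 (the RNA sensor MDA5) ranged between 11.8 and 55.2 CPM over the 17 libraries, Dhx58 (their regulator LGP2) between 2.00 and 14.2 CPM, and Eif2ak2 (the kinase PKR, which halts translation on double-stranded RNA) between 4.34 and 16.7 CPM.

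Of the 20 antiviral effectors, Rsad2, Oasl1 and Isg15 rose in PP over NP in both genotypes. Of all genes, 1.34% in KO and 3.49% in WT were called higher there. Rsad2 encodes viperin, which makes a chain-terminating nucleotide. It had 6.31 and 9.28 CPM in KO NN, against 7.41, 12.9 and 6.27 CPM in WT NN. It had 7, 10.5 and 13.3 CPM in KO NP, against 3.48, 4.27 and 3.83 CPM in WT NP. It had 60.6, 153 and 51.5 CPM in KO PP, against 101, 9.3 and 39.8 CPM in WT PP. Within NP every KO library lay above every WT library, with a change of 1.41 (SE 0.35, edgeR, Benjamini-Hochberg adjusted p = 0.113) that DESeq2 called. The step from NP to PP was 3.11 (SE 0.63) in KO (edgeR, Benjamini-Hochberg adjusted p = 0.0261) and 3.69 (SE 0.65) in WT (adjusted p = 0.00343). The WT call of Rsad2 held in each of the 11 alternatives run, and the KO call was lost without KO 19, 20, 21 or 23. All PP libraries lay above the NP libraries of their genotype, WT 11 least. Rsad2 also rose in PP over NN, by 3.50 (SE 0.76) in KO (edgeR, Benjamini-Hochberg adjusted p = 0.00606), and in WT (adjusted p = 0.00806), where 2 of 3 PP libraries lay above all NN ones.

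Isg15 is a ubiquitin-like protein attached to other proteins. It had 4.02 and 19.5 CPM in KO NN, against 15.7, 21.5 and 6.58 CPM in WT NN. It had 5.32, 15.8 and 9.16 CPM in KO NP, against 14.2, 4.38 and 8.19 CPM in WT NP. It had 50.2, 217 and 45.9 CPM in KO PP, against 124, 15.7 and 87.3 CPM in WT PP. The step from NP to PP was 3.37 (SE 0.82) in KO (edgeR, Benjamini-Hochberg adjusted p = 0.0464) and 3.09 (SE 0.81) in WT (adjusted p = 0.0364). KO 23 had 217 CPM, and WT 11, at 15.7 CPM, lay within the WT NN range. Oasl1, which in the mouse limits translation of Irf7, rose by 3.16 (SE 0.59) in KO (edgeR, Benjamini-Hochberg adjusted p = 0.0176) and by 2.69 (SE 0.58) in WT (adjusted p = 0.0124), with 10.9, 17.1 and 11.8 CPM in KO NP, against 10.2, 8.25 and 7.19 CPM in WT NP. It had 98.8, 206 and 51 CPM in KO PP, against 94.6, 14.1 and 56.7 CPM in WT PP. For PP over NN, Oasl1 changed by 3.29 (SE 0.70) in KO (edgeR, Benjamini-Hochberg adjusted p = 0.00534) and Isg15 by 2.38 (SE 0.78) in WT (adjusted p = 0.0409).

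Ifit1, Mx1 and Oas3, often used to mark a type I interferon response, were called in none of the 9 comparisons by edgeR. Ifit1, which binds viral RNA ends, had 3.42 and 18 CPM in KO NN, against 5.69, 13.1 and 4.93 CPM in WT NN. It had 2.58, 6.52 and 9.85 CPM in KO NP, against 8.93, 3.22 and 1.05 CPM in WT NP. It had 14.6, 49.9 and 6.87 CPM in KO PP, against 31.6, 5.21 and 28.7 CPM in WT PP. KO 14 without treatment had more Ifit1 than KO 22 and KO 24 with both treatments. Mx1 had 0.158 and 1.47 CPM in KO NN, against 2.01, 0.243 and 1.72 CPM in WT NN. It had 0.67, 1.83 and 0.722 CPM in KO NP, against 0.516, 1.58 and 0.0228 CPM in WT NP. It had 3.02, 9.84 and 1.91 CPM in KO PP, against 8.19, 0.521 and 3.78 CPM in WT PP, with overlapping KO and WT levels in every condition. Oas3, which makes the oligoadenylate that activates RNase L, had 0.105 and 5.81 CPM in KO NN, against 1.8, 4.18 and 0 CPM in WT NN. It had 0.628, 0.84 and 1.73 CPM in KO NP, against 1.61, 0.316 and 1.26 CPM in WT NP. It had 1.6, 6.27 and 1.62 CPM in KO PP, against 3.71, 2.11 and 3.69 CPM in WT PP, and KO 14 came close to KO 23, the highest.

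Ifit3 and Mx2 were called higher in WT PP than in WT NN and in no other comparison. Ifit3 changed by 4.04 (SE 1.18, edgeR, Benjamini-Hochberg adjusted p = 0.0217) and Mx2 by 5.38 (SE 1.60, adjusted p = 0.0241). Ifit3 and its copy Ifit3b share 869 of the 1696 stretches of 50 bases in the Ifit3 transcript (51.2%), so how their reads were divided is uncertain. In NN, Ifit3 had 1.08 and 9.36 CPM in KO NN, against 0, 0.438 and 0.688 CPM in WT NN. Every KO library lay above every WT library there, and the change of 3.71 (SE 1.84) missed the threshold. Oas1a shares 57.6% of its stretches with Oas1g and carries the same uncertainty; it had 52.3 and 89.1 CPM in KO NN, against 143, 155 and 77.1 CPM in WT NN. In WT, Oas1a stood at -0.99 (SE 0.37) for both treatments over none, short of the threshold (edgeR, Benjamini-Hochberg adjusted p = 0.0693).

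Ifi44 had its lowest group mean in KO PP. It had 1.03 and 6.53 CPM in KO NN, against 2.05, 0.438 and 0 CPM in WT NN. It had 1.34, 1.1 and 3.21 CPM in KO NP, against 1.13, 0.923 and 0.548 CPM in WT NP. It had 0.314, 0.88 and 0 CPM in KO PP, against 4.08, 1.1 and 3.51 CPM in WT PP. In PP every KO library lay below every WT library, and the change was -2.86 (SE 1.38). KO PP lay below KO NP and KO NN, with changes of -2.23 (SE 1.43) against KO NP and -3.23 (SE 1.56) against KO NN. None of these passed the test. The remaining effectors had no call in the 9 comparisons. Ifit2 (a relative of Ifit1) ranged between 0 and 29.4 CPM, Ifit3b between 0 and 6.36, Oasl2 between 4.61 and 39.7, Oas2 between 0 and 10.3, and Cmpk2 (a nucleotide kinase next to Rsad2 in the genome) between 0.688 and 12.0. Xaf1 (an antagonist of the apoptosis inhibitor XIAP) ranged between 1.71 and 16.2 CPM, Bst2 (tetherin, which holds budding virions at the cell surface) between 5.97 and 31.2, Ifi35 between 14.1 and 47.9, Parp14 (an ADP-ribosyltransferase) between 0.0486 and 52.8, and Trim30a between 3.21 and 62.2.

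Usp18, the brake, removes Isg15 from proteins and blocks the type I interferon receptor. It had 2.55 and 4.06 CPM in KO NN, against 5.03, 0 and 0 CPM in WT NN. It had 0.398, 0.84 and 1.82 CPM in KO NP, against 2.1, 1 and 1.21 CPM in WT NP. It had 6.09, 11.9 and 7.63 CPM in KO PP, against 2.32, 3.74 and 7.01 CPM in WT PP. All PP libraries lay above the NP libraries of their genotype, with changes of 3.07 (SE 1.36) in KO and 1.60 (SE 1.29) in WT that did not pass in edgeR. In WT NN the level was set by 1 library, WT 1, the other two being at 0.

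Guanylate-binding and immunity-related GTPases defend cells against intracellular pathogens. Their median log2 fold change for DSS was 1.54 in KO and 2.19 in WT, beside 0.02 and 0.14 over all genes. Above 0 lay 6 of 7 in KO and 7 of 7 in WT, against 51.0 and 56.5% of all genes. The 1 call was Gbp5 in WT, where 2.25% of all genes were called higher. WT 7 was the highest WT NP library for all 7. For PP over NN the medians were 4.65 in KO and 3.35 in WT, beside 0.06 and 0.27 over all genes. In each genotype 3 of 7 were called, where 6.52% of all genes in KO and 12.8% in WT were called higher. Gbp5, a guanylate-binding protein that acts on intracellular bacteria and promotes inflammasome activity, had 0.0263 and 0.154 CPM in KO NN, against 0.0409, 0.0486 and 0 CPM in WT NN. It had 0.984, 6.61 and 2.14 CPM in KO NP, against 3.29, 2.64 and 2.24 CPM in WT NP. It had 16.6, 110.0 and 5.12 CPM in KO PP, against 42.7, 5.65 and 18.6 CPM in WT PP. The DSS change in WT was 6.41 (SE 1.42, edgeR, Benjamini-Hochberg adjusted p = 0.0211), a ratio of 94.7 on 300 counts against 2 (95% interval 26.0 to 785, counting error only). This call was lost without WT 1, WT 2 or WT 3, and in the fit of the 2 groups alone. In KO, PP over NN changed Gbp5 by 8.86 (SE 1.57, edgeR, Benjamini-Hochberg adjusted p = 0.0013). In WT the PP to NN ratio was 763.5 (95% interval 211 to 6308, counting error only), on 2098 counts against 2.

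Gbp2, a relative that coats pathogen vacuoles, had 3.31 and 2.01 CPM in KO NN, against 2.46, 0.0486 and 3.94 CPM in WT NN. It had 5.32, 33.3 and 6.01 CPM in KO NP, against 137.5, 6.51 and 6.23 CPM in WT NP. It had 48, 363 and 45.1 CPM in KO PP, against 205, 17.1 and 85.7 CPM in WT PP. WT 7 had 137.5 CPM of Gbp2 under DSS alone, far above WT 8 and WT 9, and the KO over WT change in NP of -1.75 (SE 1.06) turned to 1.22 without WT 7; neither passed. KO 23 and WT 10 were the highest in PP. In PP over NN, Gbp2 changed by 5.56 (SE 1.47) in WT (edgeR, Benjamini-Hochberg adjusted p = 0.0124). Iigp1, an immunity-related GTPase of the mouse, had 0.237 and 0.951 CPM in KO NN, against 0.0409, 0 and 2.94 CPM in WT NN. It had 2.22, 11.7 and 5.05 CPM in KO NP, against 14.8, 8.88 and 1.53 CPM in WT NP. It had 17.6, 20 and 11.6 CPM in KO PP, against 8.55, 4.63 and 17.8 CPM in WT PP, with overlap of KO and WT in every condition.

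WT 7 set apart other GTPases too. Igtp, another immunity-related GTPase, had 3.23, 7.88 and 6.73 CPM in KO NP, against 37.9, 8.65 and 5.32 CPM in WT NP. Irgm1, which regulates that family, had 12.9, 21.7 and 20.5 CPM in KO NP, against 73.4, 28 and 11.1 CPM in WT NP. Igtp was the member furthest below 0 in PP over NP in WT, at -1.18 (SE 0.73), and stood at 0.12 without WT 7; neither value passed the test. Gbp3 rose in WT PP over WT NN by 4.48 (SE 1.38, edgeR, Benjamini-Hochberg adjusted p = 0.0287), and Gbp7 in KO PP over KO NN by 4.65 (SE 1.25, adjusted p = 0.023). In KO over WT under PP, 7 of 7 GTPases lay above 0, against 50.9% of all genes. Their median was 0.67 beside 0.01 over all genes, and none passed.

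Of the 3 antigen processing genes, Tap1 and Psmb8 rose in PP over NP in KO, where 1.34% of all genes were called higher. None was called in WT, where 3.49% of all genes were called higher. Tap1, a subunit of the peptide pump of the endoplasmic reticulum, had 8.34 and 9.54 CPM in KO NN, against 5.69, 5.84 and 4.4 CPM in WT NN. It had 5.68, 8.37 and 7.97 CPM in KO NP, against 16.5, 9.94 and 6.55 CPM in WT NP. It had 31, 73.5 and 19.3 CPM in KO PP, against 25.1, 5.18 and 14.3 CPM in WT PP. The step from NP to PP was 2.49 (SE 0.55) in KO (edgeR, Benjamini-Hochberg adjusted p = 0.0369) and 0.44 (SE 0.52) in WT, where it did not pass. Every KO PP library lay above every KO NP library, while WT PP and WT NP overlapped. For PP over NN in KO, Tap1 changed by 2.21 (SE 0.63, edgeR, Benjamini-Hochberg adjusted p = 0.0326) and Psmb8 by 2.72 (SE 0.54, adjusted p = 0.00339). Psmb8, a catalytic subunit of the immunoproteasome, had 7.02 and 14.9 CPM in KO NN, against 13.8, 18 and 23.5 CPM in WT NN. It had 14.9, 25.3 and 19.8 CPM in KO NP, against 70.1, 29.7 and 27.9 CPM in WT NP, where every KO library lay below every WT library and the change was -1.09 (SE 0.36), short of the threshold. It had 50.3, 96.6 and 70.2 CPM in KO PP, against 59.2, 20.2 and 32.8 CPM in WT PP, where the groups overlapped and the change was 0.97 (SE 0.42), again short of it.

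The NP to PP step of Psmb8 was 1.86 (SE 0.45) in KO (edgeR, Benjamini-Hochberg adjusted p = 0.0464) and -0.19 (SE 0.43) in WT. The genotypes' steps were compared through the difference of the MCJ effect, NP minus PP, which was -2.04 (SE 0.62) for Psmb8 and -2.06 (SE 0.74) for Tap1 (unadjusted p 0.00414 and 0.0129 from edgeR), a negative value standing for a larger step in KO. Neither passed after adjustment over all genes (edgeR, Benjamini-Hochberg adjusted p = 0.566 and 0.766), so a difference between the genotypes was not shown. Psmb9, the other immunoproteasome subunit, had 10.6 and 13.7 CPM in KO NN, against 16.5, 29.9 and 16.2 CPM in WT NN, lower in KO without overlap; the change was -0.83 (SE 0.42), short of the threshold, and it had no call.

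The chemokines Cxcl9 and Cxcl10, which draw T cells carrying Cxcr3, had their highest levels in PP. Cxcl10 had 3.63 and 4.83 CPM in KO NN, against 8.64, 3.26 and 6.8 CPM in WT NN. It had 10.3, 34.9 and 9.07 CPM in KO NP, against 19.3, 15.8 and 12.7 CPM in WT NP. It had 112, 377 and 89.1 CPM in KO PP, against 198, 26.4 and 123.5 CPM in WT PP. The step from NP to PP was 3.42 (SE 0.71) in KO (edgeR, Benjamini-Hochberg adjusted p = 0.0324) and 2.86 (SE 0.69) in WT (adjusted p = 0.0245). Every PP library lay above every NP library of its genotype. Cxcl10 also changed in PP over NN, by 5.51 (SE 0.94) in KO (edgeR, Benjamini-Hochberg adjusted p = 0.000947) and by 4.21 (SE 0.74) in WT (adjusted p = 0.000748).

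Cxcl9 had 0.105 and 0 CPM in KO NN, against 1.72, 4.23 and 0.0382 CPM in WT NN. It had 1.72, 10.4 and 1.85 CPM in KO NP, against 5.32, 2 and 3.01 CPM in WT NP. It had 7.45, 317 and 15.7 CPM in KO PP, against 95, 6.28 and 18.8 CPM in WT PP. KO 23 stood far above KO 22 and KO 24, and WT 10 far above WT 11 and WT 12. Cxcl9 was called for PP over NN in both genotypes, at 10.99 (SE 2.43) in KO (edgeR, Benjamini-Hochberg adjusted p = 0.00693) and 4.34 (SE 1.42) in WT (adjusted p = 0.0388), and not for PP over NP. In KO NN it rested on 4 counts in KO 13 and 0 in KO 14, and the KO change lay between 7.69 and 14.92 over its alternatives, without a call when KO 13 or KO 14 was left out. The change of KO over WT in NN, -5.16 (SE 2.71), did not pass.

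Differences of the MCJ effect between conditions passed for no member in edgeR and for Ifnb1 alone in DESeq2. For NP minus NN, edgeR called 0 members and DESeq2 0, and 2 were higher and 1 lower at an unadjusted p under 0.05 (4.65 and 2.33% of the members, against 2.65 and 2.95% of all genes), with 0.0% of all genes called; the smallest p belonged to Mx2 (-5.42, SE 2.06), Cxcl9 (5.58, SE 2.49), Ifnb1 (7.47, SE 3.47) and Ifit3 (-3.26, SE 1.57). The members' median there was -0.19 beside -0.09 over all genes, with 17 of 43 above 0 (44.9% of all genes).

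For NP minus PP, edgeR called 0 and DESeq2 1 (Ifnb1), and 1 was higher and 4 lower at an unadjusted p under 0.05 (2.33 and 9.3% of the members, against 3.46 and 1.76% of all genes), with 0.0% of all genes called by edgeR; after Ifnb1, Psmb8 and Tap1 the next was Igtp (-2.65, SE 1.04). The median of the members there was -0.47 beside 0.06 over all genes, with 14 of 43 above 0 (53.3% of all genes). For PP minus NN, edgeR called 0 and DESeq2 0, and 2 were higher and 3 lower at an unadjusted p under 0.05 (4.65 and 6.98% of the members, against 3.21 and 5.05% of all genes), with 0.0531% of all genes called by edgeR; the smallest p belonged to Ifit3 (-4.35, SE 1.58), Cxcl9 (6.65, SE 2.49), Psmb8 (1.70, SE 0.66) and Ifi44 (-5.03, SE 2.10). The median there was 0.27 beside -0.17 over all genes, with 25 of 43 above 0 (43.3% of all genes); the median over all genes was nearer 0, at -0.06 with DESeq2 and -0.09 with its size factors in edgeR.

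**Figure D3:**
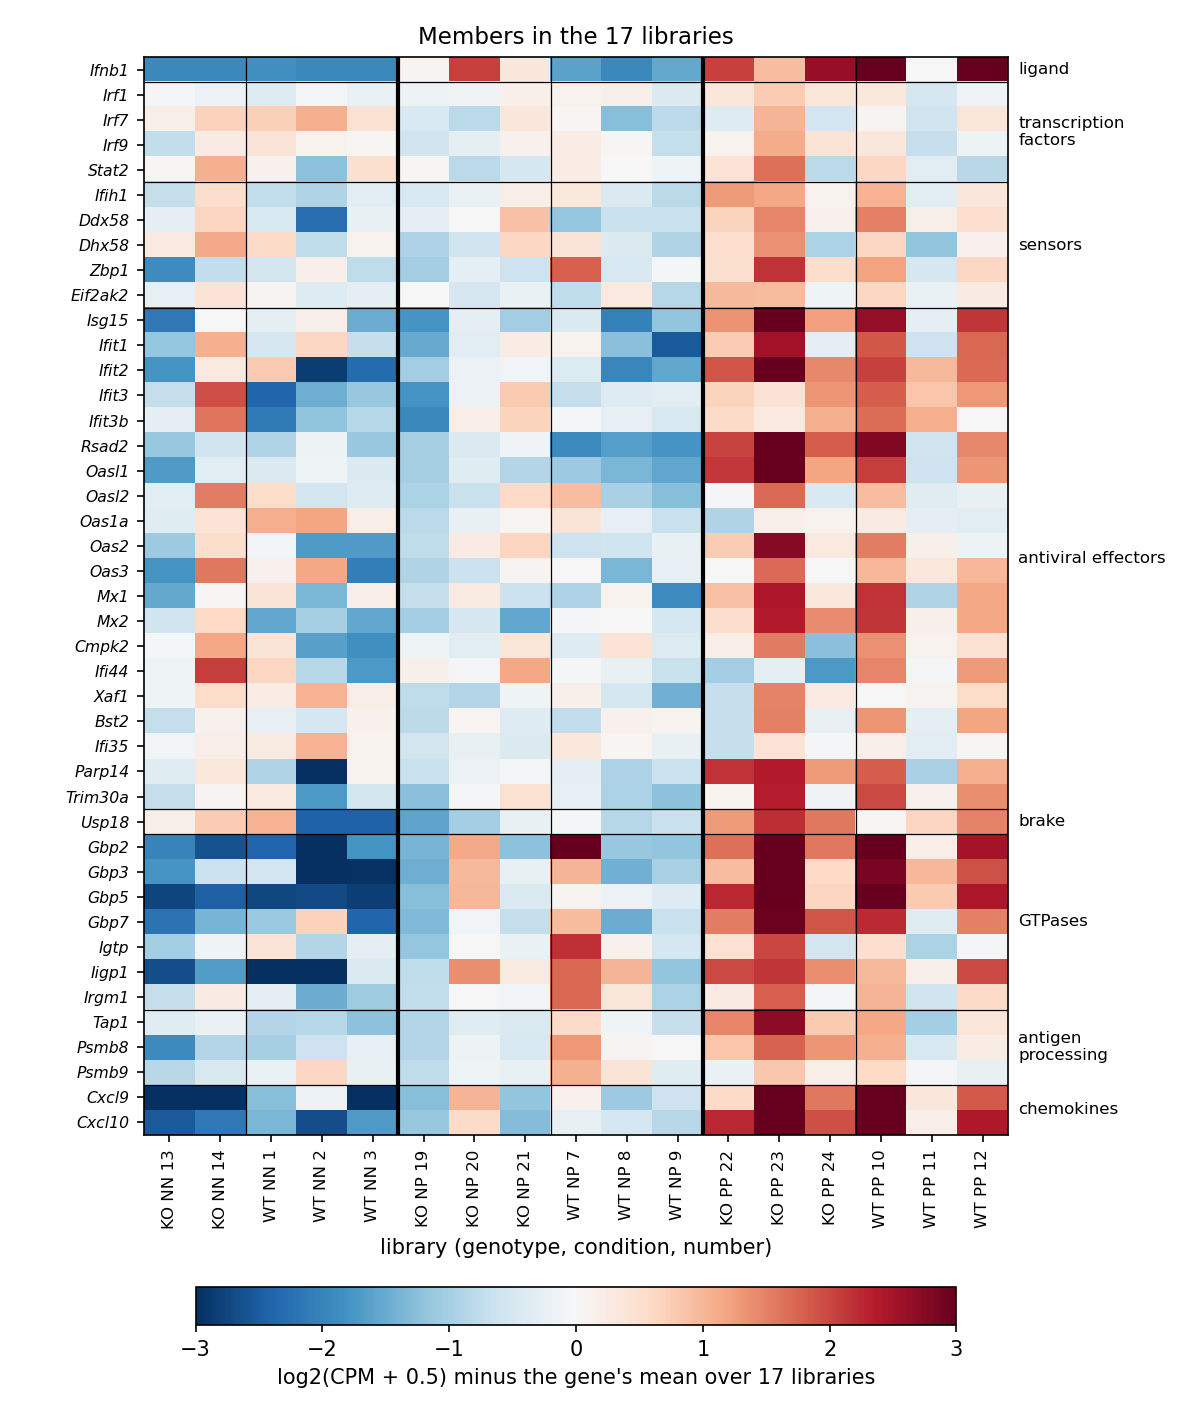
Heat map of the 43 members (rows, by role) in the 17 libraries (columns, KO left of WT within NN, NP and PP), as log2(CPM + 0.5) minus the gene's mean over the libraries, with red above and blue below that mean and colours capped at 3 on either side. KO 23 and WT 10 are high over most rows of PP, and KO 14 over the effectors in NN.

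Within groups the members moved together by library. KO 14 was the higher of the 2 KO NN libraries for 39 of 43 members (90.7%), where 48.6% of the 16958 genes tested were higher in it. In NP, WT 7 was the highest of its group for 32 members (74.4%, against 26.1% of all genes), and KO 19 was the lowest of its group for 35 (81.4%, against 30.9%). In PP, KO 23 was the highest for 38 (88.4%, against 34.9%) and WT 10 for 39 (90.7%, against 34.7%). WT 11 was the lowest for 36 (83.7%, against 33.4%) and KO 24 for 27 (62.8%, against 39.6%).

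The ligand did not follow the induced genes in KO PP. KO 23, highest for most induced genes there, had the lowest Ifnb1 of its group, at 3.15 CPM beside 7.47 CPM in KO 22 and 11.4 CPM in KO 24. In WT PP, WT 10 had the highest Ifnb1 (21.5 CPM) and WT 11 the lowest (1.45 CPM), as for most induced genes. In WT NP, WT 7 had 0.129 CPM of Ifnb1 beside its high GTPase levels. KO 23 also had the highest neutrophil sum of the series (4998 CPM) and the highest red blood cell sum (11580 CPM), and WT 11 had the lowest macrophage sum of the PP libraries (441 CPM). The part of these cells in the libraries' ranks was not tested.

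**Figure D4:**
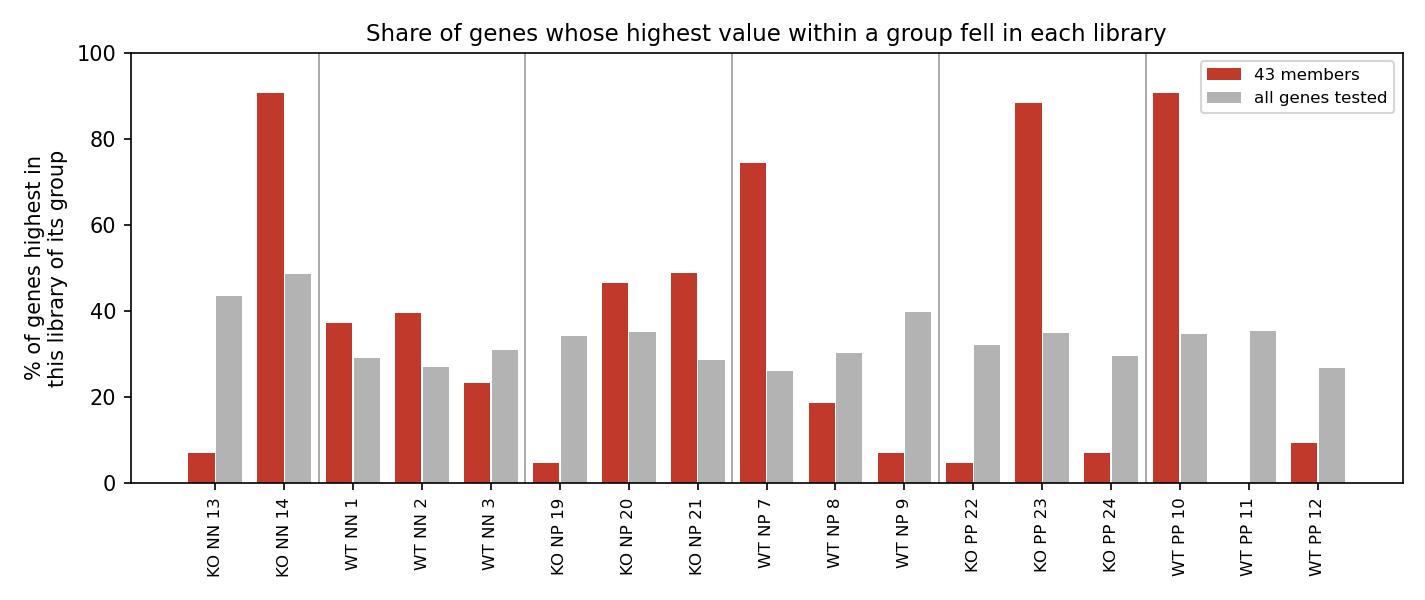
Percent of the 43 members (red bars) and of all 16958 genes tested (grey bars) that are highest in each library (horizontal axis) among the libraries of its group, with KO left of WT in each condition. KO 14, WT 7, KO 23 and WT 10 hold between 74.4 and 90.7% of the members, against 26.1 to 48.6% of all genes.

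The other genes of the interferon pathway were read in the same way, from lists of 19 other interferons, 6 receptor genes, 20 genes of sensing and signalling, 6 further brakes and 42 further induced genes. The summed level of the other interferons was at most 2.61 CPM in any library, that being Ifng, the gene of interferon gamma, in KO 23. Ifna1, Ifnk and Ifne were at 0 in all 17 libraries. At most 2 of the 19 could be tested in a comparison, and none was called by edgeR or DESeq2, with 0 at an unadjusted p under 0.05.

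With antibiotic before DSS, set against DSS alone, 1 of 6 receptor genes and 1 of 6 further brakes rose in each genotype, where 1.34% of all genes in KO and 3.49% in WT were called higher. In PP over NP in KO the calls were Ifnar1, a chain of the type I receptor (log2 fold change 1.91), Trex1, a nuclease that removes stray DNA (2.65), and 2 of the 42 induced genes, Ifitm2 (2.08) and Cd274 (3.39). Ifitm2 encodes a membrane protein that hinders viral entry and Cd274 the checkpoint ligand PD-L1. No gene of sensing and signalling was called in KO by edgeR (11 at an unadjusted p under 0.05, 3 by DESeq2), Jak2 at 1.92 and Ikbke at 1.75 having the smallest p. In WT the calls were Ifnar2, the other receptor chain (2.72), Trex1 (2.96) and 3 of 20 genes of sensing and signalling, Tlr7, a sensor of single-stranded RNA (6.17), Irf5, a factor downstream of it (5.04), and Jak2, a receptor kinase (2.44). Of the 42 induced genes 5 rose in WT, Cd274 at 4.68, Ifi204 at 4.87, Ifi203 at 3.91, Ifitm2 at 1.75 and Slfn8 at 5.05.

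DSS alone called 6 of these pathway genes in KO and 1 in WT, where 2.04 and 2.25% of all genes were called higher. In KO, Tlr7 rose (a ratio of 201, 95% interval 55.5 to 1666 from counting error only, on 612 counts against 2), with 5 of 42 induced genes, Ifitm3 at log2 4.00, Ifitm1 at 7.09, Gbp9 at least 93.7-fold (no counts in KO NN, so 3 counts over the group were taken), Cd274 at 4.52 and Ifi204 at 4.95. No receptor or further brake was called in KO by edgeR (1 of each at an unadjusted p under 0.05; 1 and 0 by DESeq2). The smallest p among these were those of Ifnar2 at 2.88, Ifngr2 at -0.42, Trex1 at 1.45 and Socs3 at 1.30. In WT, Ifi203 rose at least 45.9-fold over the same floor, with no counts in WT NN, and no receptor, signalling gene or further brake was called by edgeR (0, 4 and 0 at an unadjusted p under 0.05; 0, 1 and 0 by DESeq2). The smallest p were those of Ifnar2 at 1.10, Ifnar1 at 0.44, Tlr4 at 1.19, Irf5 (58 counts against 3, a ratio of 12.2 with an interval of 3.97 to 60.9), Isg20 at -0.63 and Socs3 at 0.74.

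With both treatments against none, Ifnar1 and Ifnar2 rose in each genotype, on the log2 scale by 2.71 and 5.24 in KO and by 1.82 and 3.83 in WT, where Ifngr2, a chain of the interferon gamma receptor, fell (-0.64). Of 20 genes of sensing and signalling, 6 rose in KO, Tlr7 (3325 counts against 2, a ratio of 1159 with an interval of 320.5 to 9572), Irf5 (6.53), Jak2 (2.71), Sting1 (2.42), Jak1 (1.58) and Ikbke (1.84). In WT 9 rose, among them Tlr7 (4595 counts against 3, a ratio of 1115 with an interval of 381 to 5407), Irf5 (1756 counts against 3, a ratio of 426 with an interval of 145.5 to 2068), Sting1 (3.14), Tlr4 (1.88), Jak2 (2.39) and Unc93b1 (2.04). Sting1 passes on the signal of cytosolic DNA, and Unc93b1 brings Tlr7 to the endosome. The brakes Trex1 and Socs3 rose in both, by 4.10 and 3.20 in KO and by 2.71 and 2.51 in WT. Of the 42 further induced genes 19 rose and 1 fell in KO, and 12 rose and 2 fell in WT. For all the lists in this comparison, 6.52% of all genes were called higher and 3.77% lower in KO. In WT, 12.8 and 7.31% were. Those of smallest p in KO were Ifitm2 (3.58), Ifitm3 (5.66), Cd274 (7.91), Ifi204 (8.51), Ifi203 (6.12) and Ifitm1 (9.16). In WT they were Ifi203 (at least 685-fold higher over the floor, with no counts in WT NN), Ifi204 (6.84), Cd274 (5.75), Slfn8 (at least 149-fold higher, likewise), Ifi27, which fell (-1.82), and Ifitm1 (5.98).

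The loss of MCJ called 1 gene over all of these pathway lists, Cd274 in NP, where 0.983% of all genes were called higher and 0.0208% lower. Cd274 had 22.5, 51 and 35.3 CPM in KO NP, against 9.96, 4.43 and 8.83 CPM in WT NP, so that the groups did not overlap, and the change was 2.23 (SE 0.38, edgeR quasi-likelihood test, Benjamini-Hochberg adjusted p = 0.0179). In NP no receptor, signalling gene or further brake was called by edgeR (1, 4 and 0 at an unadjusted p under 0.05; 0, 3 and 0 by DESeq2), with Ifnar2 at 0.96, Ifnar1 at 0.57, Irf5 at 2.91, Tlr7 at 3.05, Trex1 at 0.79 and Socs3 at 0.52. In NN none of the 5 lists had a call by edgeR (4 induced genes at an unadjusted p under 0.05; 1 by DESeq2), and the smallest p were those of Il10rb (0.31), Ifnar2 (-0.87), Jak1 (0.60), Ticam1 (-0.56), Trex1 (-0.97), Isg20 (-0.29), B2m (-1.13) and Ifitm3 (-2.15). In PP none had a call by edgeR (1 signalling gene and 2 induced genes at an unadjusted p under 0.05; 0 by DESeq2), and they were those of Ifnar1 (1.12), Ifnar2 (0.60), Ikbke (1.15), Irf8 (0.54), Adar (0.45), Socs1 (0.92), Parp12 (0.94) and Parp9 (0.77).

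**Figure D5:**
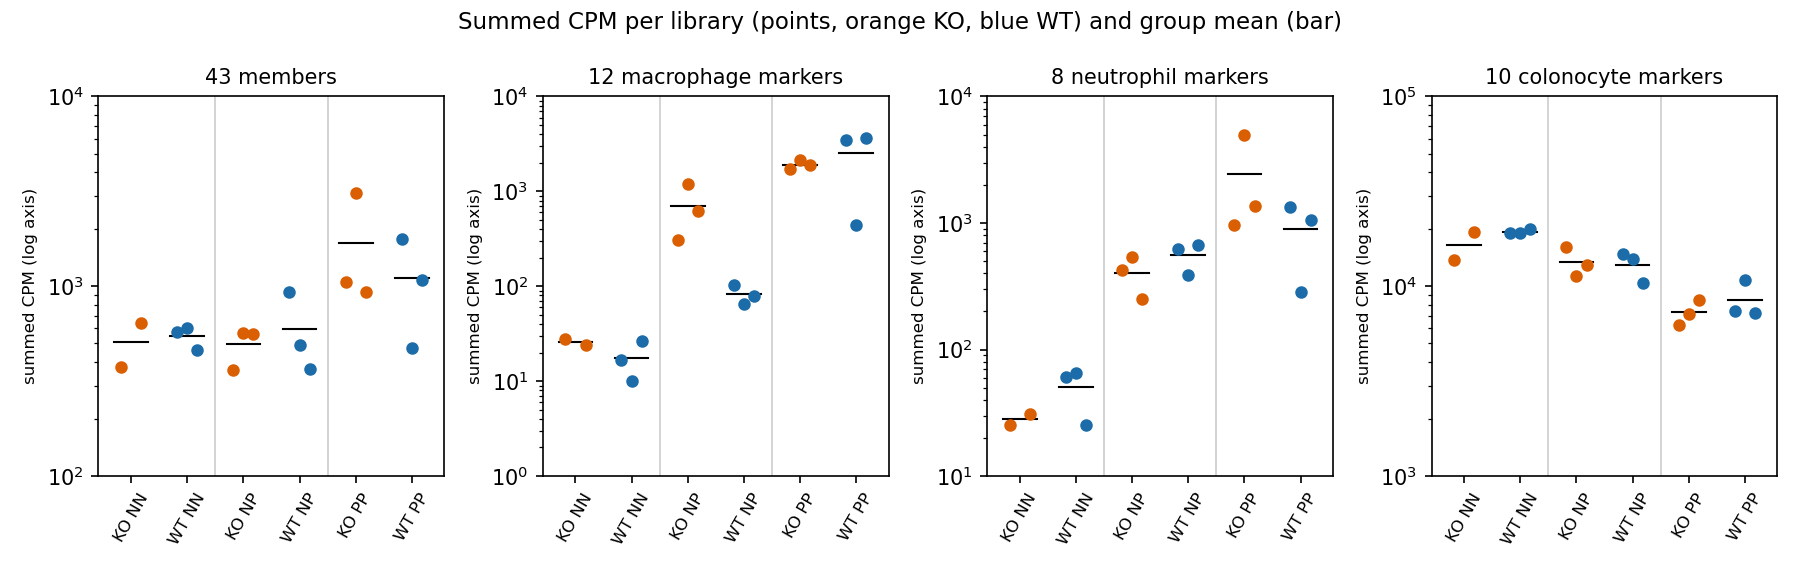
Summed CPM (log axes, each panel with its own range) of the 43 members, 12 macrophage markers, 8 neutrophil markers and 10 colonocyte markers in each library (points), with KO (orange) left of WT (blue) in NN, NP and PP and group means as bars. Macrophage and neutrophil sums are higher in PP than in NN, and colonocyte sums lie between 6254 and 10820 CPM in PP.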

How the data were processed

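RNA was measured in 17 libraries in 6 groups, taken from the library titles. The authors deposited 3 tables of raw read counts, 1 per condition with both genotypes, covering 27179 genes by NCBI number. Per the submitters' processing notes, CASAVA 1.8.2, FastQC, Trim Galore, STAR 2.5.4, the build mm10 and DESeq2 were used; the counting program, annotation and strand setting were not given in the sources used here. Symbols came from RefSeq (25275 genes) and GENCODE (18), and 1886 gene numbers had none.

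Counts were scaled with TMM factors, and low genes were removed with filterByExpr. KO against WT was tested within each table with the quasi-likelihood test of edgeR 4.0.16 (R 4.3.3); effects of treatment and their differences came from 1 fit of all 17 libraries, which share 1 estimate of the spread. Benjamini-Hochberg adjustment ran over every gene tested, with calls at adjusted p-values under 0.05. Alternatives were DESeq2 1.42.0, its size factors in edgeR, no filter, mitochondrial transcripts removed, a fit of other samples, each library left out in turn and, added later, a replicate block by mouse number; the scripts were tested on simulated data. Intervals (95%) and the floor of 3 counts cover counting error only. Figures and tables used Python 3.11.15, pandas 2.3.3 and scipy 1.17.1.

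The members and lists were chosen with earlier results of these data known, so the members are described by counts and medians and no list was tested. Per-library values were given for 15 members fixed by name and any other called between genotypes; each comparison named its called members (at most the 10 of smallest p), or the 4 of smallest p, and the value most against the majority. Further members' values, such as those of Gbp5, Ddx58, Ifi44, Igtp and Irgm1, were added after they were seen. Of the other pathway lists, called genes were named (at most 6 a list), or the 2 of smallest p. Shared stretches between Ifit3 and Ifit3b and between Oas1a and Oas1g were counted in RefSeq transcripts.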

Additional observations from a re-analysis of the deposited data

How the results depend on the processing

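The number of members called was within 1.5 times the reported number in 42 of 59 recounts that kept all libraries, and moved further in 17. A count that stayed at 0 was taken as kept, so comparisons without a call raise the 42. It therefore says little of the comparisons that had calls. In NP, KO against WT called 2 with DESeq2, 3 without a filter and 0 in the fit of all 17 libraries. DSS in KO called 4 with DESeq2, 2 without a filter and 5 in the fit of the 2 groups, and DSS in WT called 2, 2 and 0. Antibiotic before DSS, over DSS alone, called 12 in KO with DESeq2 and 11 in the fit of the 2 groups, and 10 and 9 in WT. PP over NN called 17 in WT with DESeq2 and 4 in the fit of the 2 groups. The difference NP minus PP called 1 with DESeq2. The shares of all genes called in these recounts are not given here, so they describe the processing and not the members. The cause was not tested.

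Leaving out 1 library at a time, KO against WT called between 0 and 1 under NP and 0 throughout under NN and PP. DSS called between 0 and 2 in KO and between 0 and 1 in WT. Antibiotic before DSS called between 0 and 7 in KO and between 2 and 7 in WT, and PP over NN between 3 and 12 in KO and between 4 and 16 in WT. The differences called between 0 and 1 (NP minus NN), 0 for NP minus PP and 0 for PP minus NN. An NN group of KO left with 1 library was assumed to vary like the other groups.

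Single members were followed for the results named in each comparison, and a result that stayed without a call counted as kept. Under all alternatives, 678 values kept direction and side of the threshold. A call was lost by 89 and gained by 18, and 2 reversed without WT 7. These were Gbp2 in KO over WT under NP, between -3.14 and 1.22 as libraries were left out, and Igtp in PP over NP in WT, between -1.61 and 0.12. Mouse numbers recur in 2 pairs of libraries each between KO NN and WT NN and between KO NP and KO NN; a replicate block on that number, added after the data were seen, with the 2 groups fitted alone and 1 degree of freedom left, called 0 members in NN and 13 for DSS in KO (7 higher and 6 lower). The 13 stand without a share of all genes from the same fit and are not read as a result about the members. Same-numbered libraries did not deviate together (correlations between -0.08 and 0.00 over 16958 genes). The 2 KO NN libraries deviate from their mean by opposite amounts, so this check cannot decide what a shared number stands for. The other groups compared share at most 1 number. Groups of 2 or 3 libraries and Ifnb1 counts of 0 to 7 in WT NN and WT NP limit the precision.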
